A study of Mus musculus with 12 samples.

Results

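Mammary myoepithelial cells and brown adipocytes that both carried the permanent GFP mark of the Ucp1 lineage were compared by bulk RNA sequencing. The 4 libraries, of 12 in the series, were chosen by their labels alone: the Ucp1 GFP-positive myoepithelial cells (2 libraries) and the Ucp1 GFP-positive brown adipocytes (2 libraries). The mice were C57BL/6 and carried Ucp1-iCre, a recombinase under the promoter of the brown fat gene Ucp1, together with ROSAmTmG, a reporter that switches a cell and all its descendants from membrane tdTomato to membrane GFP once the recombinase has acted. The myoepithelial cells were sorted at day 10 of lactation as GFP-positive, lineage-negative, CD24-positive and CD29-high, and the brown adipocytes were GFP-positive cells of 8-week-old virgin females. The tissues therefore differ also in lactation and age, which cannot be told apart from the cell type. The other 8 libraries, 2 per group, are GFP-negative myoepithelial cells of the Ucp1 line and cells of a Myf5-Cre line. The latter are GFP-positive and GFP-negative myoepithelial cells and GFP-positive brown adipocytes. These myoepithelial cells were also of day 10 of lactation, and these brown adipocytes of 8-week-old mice. All 8 entered the fit for its estimate of the spread. They also serve below as reference levels, and the Myf5 GFP-positive libraries in a test of the difference between the lines. Whether the replicates of a group are separate animals is not stated in the labels. Their spread may thus be technical, and the p-values rest on it alone.

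Myoepithelial cells form the basal layer of the mammary gland, rest on the basement membrane, and contract under oxytocin to eject milk. They combine basal keratins with the contractile apparatus of smooth muscle. Brown adipocytes burn fatty acids in dense mitochondria, where UCP1, an uncoupling protein of the inner membrane, releases the energy as heat. The title of the series puts the question of whether brown adipocytes can take on a basal myoepithelial phenotype, and this comparison asks how far the RNA of marked cells in the gland differs from that of marked cells in brown fat.

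Promoter sequences of 3 milk genes and 1 gene of the mitochondrial ATP synthase are shown, because milk genes hold most of the largest rises and nearly every respiratory chain gene measured fell. They are from RefSeq (GRCm38.p6), upstream of the annotated start, 5′ to 3′ on the strand of the gene. Capitals mark TTCNNNGAA, the core recognised by STAT5, the factor through which prolactin acts on milk genes, and GCGCATGCGC, the palindrome recognised by NRF1, a regulator of nuclear genes for mitochondria. For Csn1s1 and Glycam1 the 150 bases before the start are printed, and for Csn2 and Atp5k the 30 bases around the motif.
Csn1s1 (casein alpha s1; chr5:87666058-87666207, plus strand): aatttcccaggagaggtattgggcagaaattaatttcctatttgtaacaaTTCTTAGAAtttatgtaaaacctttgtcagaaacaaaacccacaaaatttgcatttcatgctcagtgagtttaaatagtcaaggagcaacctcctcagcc
Glycam1 (a secreted milk mucin; chr15:103565082-103565231, minus strand): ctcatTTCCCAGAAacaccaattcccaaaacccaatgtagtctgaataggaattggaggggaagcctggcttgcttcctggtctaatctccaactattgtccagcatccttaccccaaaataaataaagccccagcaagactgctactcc
Csn2 (beta casein; chr5:87699499-87699528, minus strand): tcacgtagacTTCTTGGAAttgaagggact
Atp5k (subunit e of ATP synthase; chr5:108434430-108434459, minus strand): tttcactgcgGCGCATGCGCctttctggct
On either strand of the 300-base windows around the starts, TTCNNNGAA stood in 4 of 11 windows of the milk list (36.4%; Csn1s2a is the other gene) and in 8.30% of all 32851 windows. GCGCATGCGC stood in 2 of 21 windows of nuclear oxidative phosphorylation genes (9.52%) and in 0.971% of all windows. The CArG box, the site of serum response factor, stood in 3 of 16 windows of the contractile list (18.8%) and in 1.63% of all. The 3 were windows of Myl9, Myl6 and Vcl, and none of these genes was called higher in the myoepithelial cells. Windows were at hand for 14 of 19 contractile, 11 of 17 milk, 18 of 25 oxidative phosphorylation and 17 of 20 citric acid cycle genes. TTCNNNGAA also stood in 3 of 21 windows of oxidative phosphorylation genes (14.3%). TCAAGGTCA, the extended half-site of the estrogen-related receptors, stood in 1 of 22 citric acid cycle windows (4.55%) and in 0.423% of all, and AGGTCANAGGTCA, the repeat bound by PPAR, whose half-site is part of the former, in none of these lists and in 0.0396% of all. A match is a description of the letters and not a measured site.

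The library totals were 22313233 and 32956480 counts in the myoepithelial cells and 11027738 and 12541627 counts in the brown adipocytes. Values below are in CPM, the counts of a gene relative to 1000000 counts of its library after scaling by TMM factors, for replicate 1 and then replicate 2 of a group. The deeper myoepithelial libraries nevertheless held counts for fewer genes, 10909 and 10560 against 16826 and 16918. Of the protein-coding genes at 10 to 50 CPM in the brown adipocytes, 8.68% had no count in either Ucp1 GFP-positive myoepithelial library, against 0.236% in the GFP-negative cells of the same line. Pearson's r of the log2 values of the replicates across genes was 0.731 for the myoepithelial cells, the lowest of the 6 groups, and 0.947 for the brown adipocytes. Single genes differed widely between the myoepithelial replicates: Oxtr, the oxytocin receptor, stood at 0.147 and 165 CPM, and Trp63, a transcription factor of basal epithelium, at 13.6 and 0 CPM. A gene absent from these libraries is therefore to be read as not detected at this depth, also where a bound on its fall is given. The largest rises and falls, the nearest levels and the list medians rest on genes with at least 10 counts in both myoepithelial libraries. Counts of list members that rose or fell are over all tested genes. Of the 3812 genes called lower, 3107 had under 10 counts in a myoepithelial library. Transcripts of the mitochondrial chromosome took 2.45% and 1.47% of the myoepithelial counts, and 36.0% and 12.6% of the brown adipocyte counts.

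The labelled cell types were checked against their defining markers. Ucp1 itself (ENSMUSG00000031710, chr8:83290352-83298452 in mm10), whose promoter drives the recombinase, had no count in either myoepithelial library and stood at 950.1 and 3312 CPM in the brown adipocytes, at least 48582-fold lower in the myoepithelial cells (edgeR quasi-likelihood test, adjusted p = 0.000813). The 2 Ucp1 brown adipocyte libraries were below those of the Myf5 line, at 12573 and 16436 CPM. The keratins Krt5 and Krt14 were counted in both myoepithelial libraries and in neither brown adipocyte library. Of the sorting antigens, Itgb1, which encodes CD29, stood at 697 and 866 CPM in the myoepithelial cells and 425 and 359.8 CPM in the brown adipocytes, and Cd24a stood at 0.625 and 16.9 CPM and 11.2 and 4.17 CPM. Cd24a thus overlapped between the tissues, and it was at 122 and 96.4 CPM in the GFP-negative myoepithelial cells.

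Markers of endothelial cells, which line blood vessels, were high in both Ucp1 gates. The 15 markers summed to 8665 and 12435 CPM in the myoepithelial cells and 7279.8 and 3859 CPM in the brown adipocytes, against 9404 and 10310.4 CPM in GFP-negative myoepithelial cells and 141 and 743 CPM in Myf5 brown adipocytes. Kdr, a receptor for vascular endothelial growth factor, stood at 1402 and 2646 CPM in the myoepithelial cells and 843 and 349 CPM in the brown adipocytes. Pecam1, an adhesion molecule of endothelial junctions, stood at 969 and 1201 CPM and 393 and 354 CPM. Of the 15, Vwf was called higher and Ackr1 lower in the myoepithelial cells, and the other 13 did not pass the test. Of all genes, 5.34% rose and 22.5% fell. Without overlap of the libraries, 9 of the 15 stood higher and 2 lower, where 16.6% and 41.1% of all tested genes did. Vwf stood at 4.85 and 110.1 CPM in the myoepithelial cells and lost its call without myoepithelial replicate 2 or either brown adipocyte library (adjusted p from 0.111 to 0.486), and with limma-voom 6 of the list rose. In bulk RNA, fewer cells of a type and less RNA per cell cannot be told apart. The part of endothelial RNA in the results below was not tested.

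**Figure D1:**
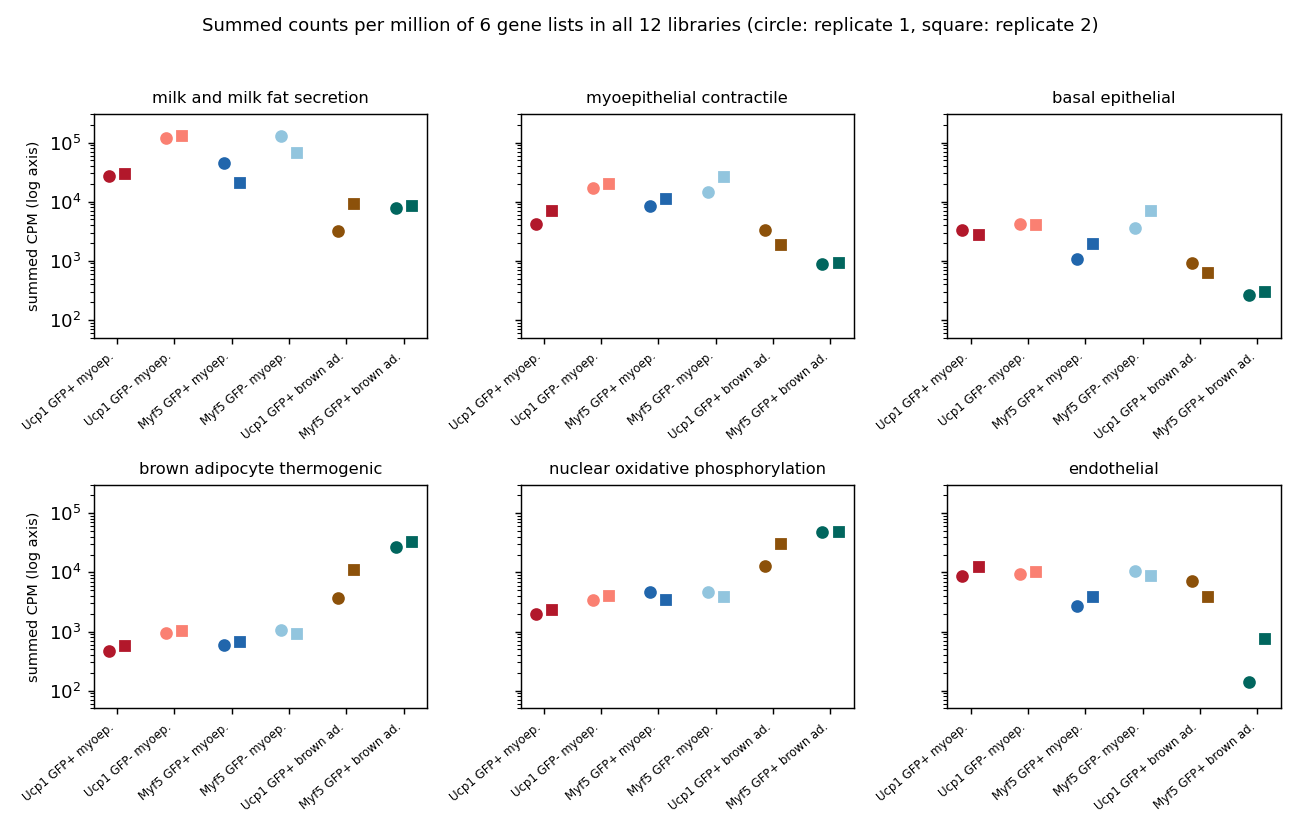
Summed CPM (log axis) of 6 gene lists in each of the 12 libraries, by group. The endothelial sum of the Ucp1 brown adipocytes (7279.8 and 3859 CPM) lies below that of the Ucp1 myoepithelial cells (8665 and 12435 CPM), without overlap. It lies above that of the Myf5 brown adipocytes (141 and 743 CPM). The thermogenic and oxidative phosphorylation sums separate brown adipocytes from every myoepithelial library.

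Across the 16953 genes tested, 4717 (27.8%) differed between the tissues at an adjusted p under 0.05, 905 (5.34%) higher and 3812 (22.5%) lower in the myoepithelial cells. Of the genes called lower, 2529 (66.3%) had no count in either myoepithelial library. The part of the lower number of genes detected there in the excess of lower calls was not tested. Among the 6613 genes with at least 10 counts in both myoepithelial libraries, leaving out mitochondrial, small RNA and many-copy genes, 682 (10.3%) were higher and 627 (9.48%) lower, with a median log2 difference of 0.37. This choice of genes itself favours those high in the myoepithelial cells, so the split is a description. Of these, 6377 also had at least 10 counts in both brown adipocyte libraries, and 588 of them (9.22%) were higher and 627 (9.83%) lower. Without overlap between the 2 pairs of libraries stood 2817 of all tested genes (16.6%) as higher and 6974 (41.1%) as lower.

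The number of calls depended on single libraries and on the spread taken from the other groups. Without myoepithelial replicate 2, 1622 genes were called higher, and without brown adipocyte replicate 2, 168 were. Without brown adipocyte replicate 1, 412 were higher and 2508 lower. When only the 4 libraries were fitted, edgeR called 0 of 13528 genes, with a smallest adjusted p of 0.0561 and 4404 genes at an unadjusted p under 0.05. The calls below therefore rest on the spread shared over all 12 libraries.

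Milk genes were high in the myoepithelial cells, and 9 of 17 had no count in either brown adipocyte library. The list summed to 27519 and 28816 CPM against 3181 and 9101 CPM. Of 17 genes for milk proteins and milk fat secretion, 14 rose, 2 fell and 1 did not pass the test, against 5.34% of all genes called higher, and the median difference of these genes was 9.29 on the log2 scale, with genes absent from brown adipocytes at their counting bound. Csn2 stood at 8254 and 9225 CPM and had no count in the brown adipocytes, at least 61992-fold higher (adjusted p = 0.000637, edgeR). Wap, the whey acidic protein, stood at 2633 and 3975 CPM with no count in brown adipocytes (at least 23436-fold). Glycam1 stood at 91.1 and 85.5 CPM (at least 626-fold). In the GFP-negative myoepithelial cells Csn2 was at 45605 and 47368 CPM, and the list took 3.35% and 3.60% of the counts of the GFP-positive cells and 12.9% and 13.7% of those of the GFP-negative cells.

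Further genes of the milk list separated to varying degrees. Cel, the bile salt-stimulated lipase of milk, stood at 107 and 150.1 CPM against 0.315 and 0 CPM (adjusted p = 0.000886). Lalba, the lactose synthase cofactor, stood at 151 and 128 CPM against 1.79 and 0.765 CPM, a rise of 109.8-fold (adjusted p = 0.00333). Xdh, which takes part in coating milk fat droplets, rose only 3.57-fold, from 279.9 and 343 CPM to 763 and 1463 CPM (adjusted p = 0.0156), and lost its call without myoepithelial replicate 2 or either brown adipocyte library (adjusted p from 0.0592 to 0.0771). Mfge8, a glycoprotein of the milk fat globule, was at 792 and 528 CPM against 515 and 744 CPM, and the libraries overlapped. Cidea and Plin2, lipid droplet proteins that serve both milk fat and brown fat, were the 2 that fell. Cidea stood at 137 and 184 CPM in the myoepithelial cells and 816 and 2644 CPM in the brown adipocytes, 10.8-fold lower (adjusted p = 0.00403). Plin2 stood at 621 and 554 CPM against 1565 and 5363 CPM (adjusted p = 0.0162), and lost its call without brown adipocyte replicate 2 (adjusted p = 0.0999).

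Of 19 contractile genes, 6 rose, 1 fell and 12 did not pass the test, where 5.34% of all genes rose and 22.5% fell. Myh11, the smooth muscle myosin heavy chain (ENSMUSG00000018830, chr16:14194535-14291372), stood at 596 and 682 CPM in the myoepithelial cells and 10.1 and 8.25 CPM in the brown adipocytes, a 69.7-fold rise (log2 6.12 ± 0.89 SE, adjusted p = 0.00169). Cnn1, calponin, stood at 262 and 318 CPM against 0.42 and 3.66 CPM, a 140.2-fold rise (log2 7.13 ± 0.98 SE, adjusted p = 0.00139). Actg2, smooth muscle gamma actin, was at 24.8 and 88.5 CPM and had no count in brown adipocytes (at least 402-fold, adjusted p = 0.00159). In these 3 genes both myoepithelial libraries lay above both brown adipocyte libraries.

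The actin gene of the contractile apparatus was uneven between replicates. Acta2, smooth muscle alpha actin, stood at 145 and 1384 CPM in the myoepithelial cells and 83.4 and 48.9 CPM in the brown adipocytes (11.6-fold, adjusted p = 0.0176). Tagln, transgelin, stood at 170.4 and 352 CPM against 42.4 and 26.5 CPM (7.58-fold, adjusted p = 0.00733). Flna, an actin crosslinker, stood at 386 and 508 CPM against 53.3 and 32.9 CPM (10.4-fold, adjusted p = 0.0192). Several partners of these proteins overlapped between the tissues: Myl9, the regulatory light chain, was at 30.3 and 316 CPM against 194 and 112 CPM, Tpm1, a tropomyosin, at 115 and 374 CPM against 236 and 187 CPM, and Cald1, caldesmon, at 339 and 136 CPM against 284 and 128 CPM. Des, the muscle intermediate filament desmin, had no count in the myoepithelial cells and stood at 37.2 and 67.02 CPM in brown adipocytes (at least 1188-fold lower, adjusted p = 0.000637). The summed contractile level was 4147 and 6854 CPM against 3264 and 1847 CPM, and it was 16898 and 19703 CPM in GFP-negative myoepithelial cells. Without brown adipocyte replicate 2, the rises of Cnn1, Myh11 and Actg2 were called and the other 3 were not (adjusted p from 0.0585 to 0.13). Acta2 lost its call also without myoepithelial replicate 2 or brown adipocyte replicate 1 (adjusted p from 0.0625 to 0.136 over these fits), and Flna without brown adipocyte replicate 1. With limma-voom 2 of the list rose, and Acta2, Tagln, Flna and Myh11 were not called.

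Of 23 basal epithelial genes, 10 rose, 1 fell and 12 did not pass the test, where 5.34% of all genes rose. The 14 detected in both myoepithelial libraries had a median log2 difference of 3.75. Krt5 stood at 71.1 and 107 CPM, Krt14 at 56.1 and 162 CPM, Krt17 at 139.8 and 29.6 CPM and Krt15 at 18.1 and 68.9 CPM, with no count of any of the 4 in the brown adipocytes. Their rises were at least 632-fold, 774-fold, 601-fold and 308-fold. Keratin genes share sequence, and more than 20% of the 31-base sequences of Krt14 occur in other genes, so its value is uncertain where reads could be split. Sox9, a transcription factor of epithelial progenitors, rose 52.4-fold, from 1.68 and 0.595 CPM to 34.4 and 84.5 CPM (log2 5.71 ± 0.79 SE, adjusted p = 0.00139).

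Itga6 and Dst, of basal attachment, also rose. Itga6, an integrin of the hemidesmosome, stood at 826 and 389 CPM against 176 and 92.7 CPM (4.52-fold, adjusted p = 0.027), and Dst, a linker of hemidesmosomes to keratin, at 939.7 and 397 CPM against 147 and 75.01 CPM (6.02-fold, adjusted p = 0.0093). Jag1, a Notch ligand, rose 7.27-fold (adjusted p = 0.0198). Trp63 did not pass the test, with counts in 1 of the 2 myoepithelial libraries. Egfr, the epidermal growth factor receptor, had no count in either myoepithelial library and stood at 1.37 and 1.956 CPM in the brown adipocytes and 33.9 and 20.3 CPM in the GFP-negative myoepithelial cells. Without brown adipocyte replicate 2, 6 of the 10 rises were called; Jag1, Itga6 and Dst were among those lost (adjusted p from 0.0701 to 0.162), and Itga6 was lost also without brown adipocyte replicate 1 or myoepithelial replicate 1.

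Some luminal epithelial genes were also counted in the gate. Of 18, 5 rose, 1 fell and 12 did not pass the test, where 5.34% of all genes rose. Krt18, a keratin of the secretory luminal layer, stood at 46.4 and 27.9 CPM against 0.105 and 0 CPM (adjusted p = 0.00103). Its partner Krt8, which shares sequence with other genes, stood at 22.6 and 153 CPM against 0 and 0.51 CPM (adjusted p = 0.00573). Cldn3, a tight junction claudin, rose 55.3-fold (adjusted p = 0.0119). Elf5, the transcription factor of secretory alveolar cells, was at 4.96 and 1.07 CPM with no count in brown adipocytes (adjusted p = 0.0103), and lost its call without brown adipocyte replicate 2 (adjusted p = 0.0595). Esr1, the oestrogen receptor, was lower, with no count in the myoepithelial cells against 1.68 and 10.97 CPM. The summed luminal level of 285 and 345 CPM was below the 1058 and 999 CPM of the GFP-negative myoepithelial cells, and the part of luminal RNA in the milk genes was not tested. The number of rises was 3 without brown adipocyte replicate 2 and 8 with DESeq2.

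**Figure D2:**
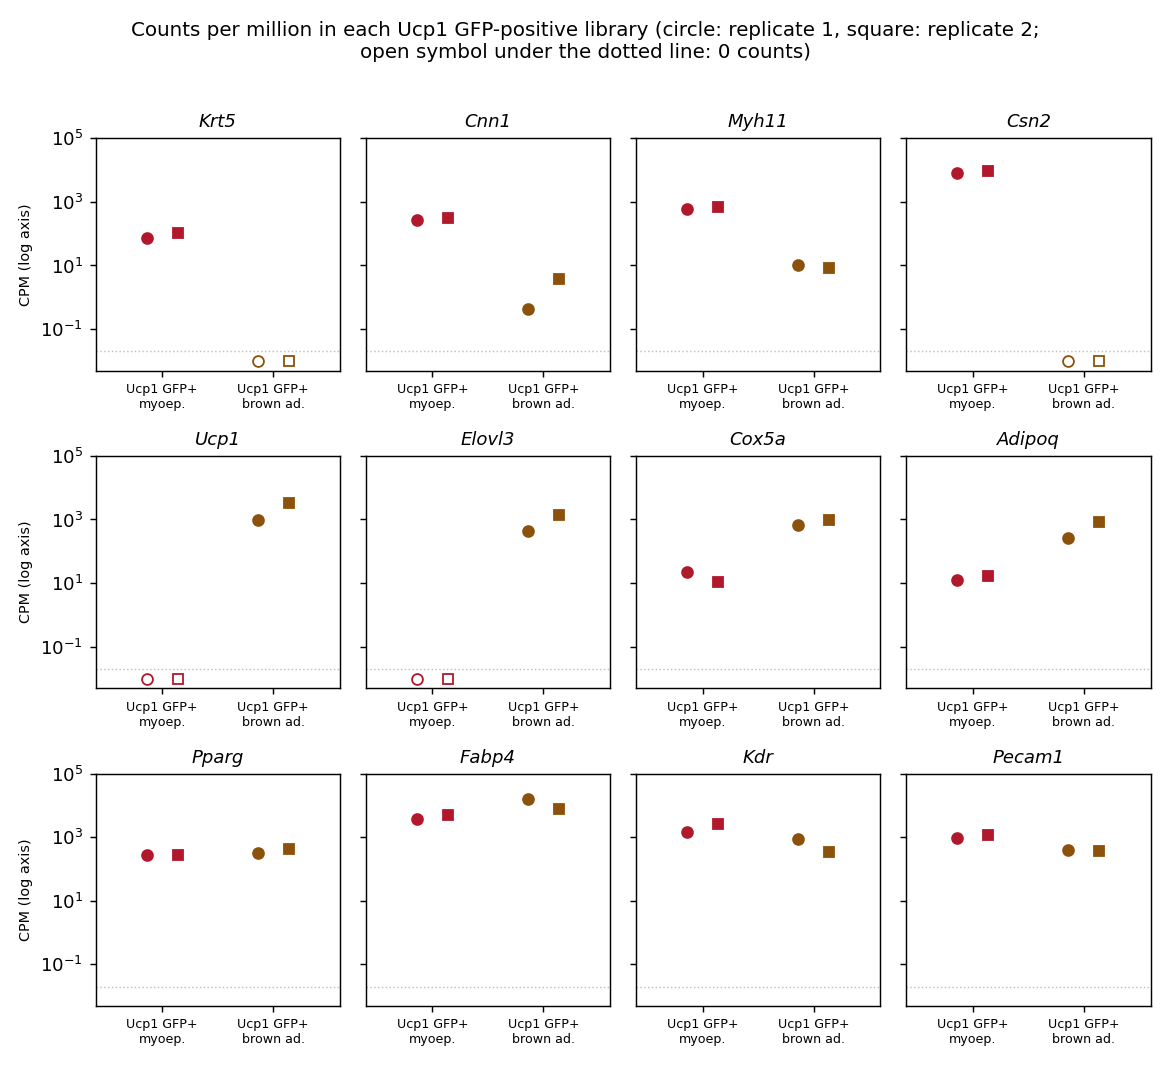
CPM (log axis) of 12 genes in the 4 Ucp1 GFP-positive libraries, 1 point per library. Krt5 and Csn2 have no count in brown adipocytes, Ucp1 and Elovl3 none in myoepithelial cells, Cox5a is at 22.1 and 11.2 CPM against 677 and 966 CPM, and Pparg lies between 281 and 274 CPM in the myoepithelial cells and 318 and 436 CPM in the brown adipocytes.

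Many thermogenic genes of brown fat were lower in the marked myoepithelial cells or not detected there. Of 26 tested, 14 fell, none rose and 12 did not pass the test, where 22.5% of all genes fell, and 13 had no count in either myoepithelial library. Elovl3, an elongase induced by cold, stood at 424 and 1406 CPM in brown adipocytes (at least 20868-fold lower in the myoepithelial cells, adjusted p = 0.00125). Slc36a2, an amino acid transporter that marks brown fat, stood at 158 and 568 CPM and had no count in the myoepithelial cells (at least 8285-fold lower). Otop1, a proton channel, stood at 64.5 and 366 CPM and Acot11, a thioesterase, at 116 and 416 CPM, again with no count in the myoepithelial cells. Lhx8, a homeobox marker of brown fat, stood at 4.31 and 6.38 CPM against none. The 2 genes that fell with at least 10 counts in both myoepithelial libraries were Cidea (above) and Cox8b, the muscle and brown fat isoform of a cytochrome oxidase subunit, which stood at 4.60 and 3.06 CPM against 408 and 511 CPM (120.0-fold lower, adjusted p = 0.00205). The calls of Ucp1, Elovl3, Slc36a2, Otop1, Acot11, Lhx8, Cidea and Cox8b held without any 1 of the 4 libraries, and the list had 12 to 17 falls in those fits.

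Some regulators of the brown fate did not pass the test. Prdm16, a coregulator that directs brown fat identity, stood at 14.3 and 17.5 CPM in the myoepithelial cells and 28.8 and 24.2 CPM in the brown adipocytes, a log2 difference of -0.74 with a 95% interval of -2.08 to 0.61. Both myoepithelial libraries lay below both brown adipocyte libraries. Ebf2, a factor of brown preadipocytes, stood at 85.8 and 24.1 CPM against 15.8 and 31.6 CPM (interval -0.21 to 2.64). Ppargc1a, a coactivator of mitochondrial genes, had no count in myoepithelial replicate 1 and overlapped in replicate 2 (0 and 16.4 CPM against 9.98 and 40.8 CPM). Its relative Ppargc1b had no count in the myoepithelial cells and stood at 13.1 and 45.4 CPM in brown adipocytes (at least 667-fold lower, adjusted p = 0.00414). The intervals for Prdm16 and Ebf2 allow differences of more than 2-fold. Prdm16 stood at 27.1 and 38.1 CPM and Ebf2 at 24.4 and 16.02 CPM in the GFP-negative myoepithelial cells.

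Of 23 general adipocyte genes, 9 fell, none rose and 14 did not pass the test, where 22.5% of all genes fell. Gpd1, which makes the glycerol backbone of triglyceride, stood at 86.2 and 22.6 CPM in the myoepithelial cells and 2421 and 12451 CPM in the brown adipocytes (137-fold lower, log2 -7.09 ± 1.002 SE, adjusted p = 0.0015). Dgat2, which adds the last fatty acid to triglyceride, stood at 39.96 and 89.9 CPM against 669 and 3316 CPM (30.7-fold lower, adjusted p = 0.00267). Adipoq, the adipocyte hormone adiponectin, stood at 12.5 and 17.02 CPM against 265 and 821 CPM (36.8-fold lower, adjusted p = 0.0104). Cidec, which fuses lipid droplets, stood at 8.31 and 15.8 CPM against 431 and 1658 CPM (86.6-fold lower, adjusted p = 0.013). Slc2a4, the insulin-regulated glucose transporter, was 40.8-fold lower (adjusted p = 0.0162), and Pnpla2, the first lipase of triglyceride breakdown, 7.21-fold lower (adjusted p = 0.0132). Without brown adipocyte replicate 2, the library with the higher lipid gene levels, 2 of the list fell, and Adipoq, Cidec, Slc2a4 and Pnpla2 were not called (adjusted p from 0.0523 to 0.095).

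Other adipocyte genes were high in both tissues, though not at the same level. Without overlap of the libraries, 19 of the 23 genes of the list stood lower in the myoepithelial cells and 1 higher. Of all tested genes, 41.1% and 16.6% did. Of the genes that follow, Pparg, Fabp4 and Aqp7 stood lower in this way and Cd36 higher. Pparg, the nuclear receptor that directs adipocyte formation, stood at 281 and 274 CPM in the myoepithelial cells and 318 and 436 CPM in the brown adipocytes (log2 -0.44, interval -1.23 to 0.35). Fabp4, a fatty acid carrier of adipocytes and capillaries, stood at 3786 and 4814 CPM against 15558 and 7757 CPM (log2 -1.44, interval -2.63 to -0.25). Cd36, a fatty acid receptor, stood at 4603 and 4431 CPM against 3894 and 3212 CPM (interval -0.45 to 1.14), and Aqp7, a glycerol channel, at 582 and 605 CPM against 786 and 819 CPM (interval -1.24 to 0.37). GFP-negative myoepithelial cells had similar values, with Pparg at 253 and 281 CPM, Fabp4 at 5378 and 6679 CPM and Cd36 at 4536 and 4439.8 CPM. Gpihbp1, which anchors lipoprotein lipase to capillary endothelium, was at 684 and 1217 CPM in the myoepithelial cells and 1525 and 673 CPM in the brown adipocytes beside these genes, and its part in their levels was not tested.

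Adipocyte genes can also be read against the unmarked myoepithelial cells, and 4 chosen after their values were seen are given here without a test. Adipoq was at 12.5 and 17.02 CPM against 3.13 and 1.04 CPM in GFP-negative cells. Hp, haptoglobin, was at 15.1 and 19.7 CPM against 1.11 and 0.795 CPM, Car3, a carbonic anhydrase of fat and muscle, at 487 and 112 CPM against 54.1 and 18.2 CPM, and Adrb3, the adipocyte receptor for noradrenaline, at 13.7 and 19.7 CPM against 0.872 and 1.01 CPM. In each of these 4 genes both marked libraries lay above both unmarked libraries. The whole lists did not follow them: the general adipocyte genes summed to 11479.9 and 12944 CPM in the marked and 12944 and 14778 CPM in the unmarked cells, and the thermogenic genes to 475 and 570.4 CPM and 954 and 1016 CPM. Of the thermogenic genes, 13 had no count in either marked library and 1 had none in either unmarked library. The brown adipocyte libraries lay above all of them, with Hp at 531 and 2691 CPM, Adrb3 at 32.4 and 145 CPM and Car3 at 509.6 and 794 CPM.

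Of 20 genes of fatty acid and triglyceride synthesis, 10 fell, none rose and 10 did not pass the test, where 22.5% of all genes fell. Thrsp, a lipogenic regulator, stood at 222 and 156 CPM in the myoepithelial cells and 3656 and 8727 CPM in the brown adipocytes (32.8-fold lower, log2 -5.03 ± 0.62 SE, adjusted p = 0.000957). Agpat2, a triglyceride synthesis enzyme, was 61.8-fold lower (adjusted p = 0.0011). Acly, which makes acetyl-CoA from citrate, stood at 200.3 and 388 CPM against 1278 and 5734 CPM (11.9-fold lower, adjusted p = 0.00725). Mlxipl, the carbohydrate-responsive transcription factor ChREBP, had no count in the myoepithelial cells and stood at 131 and 436 CPM (at least 6459-fold lower, adjusted p = 0.00171). Fads1, a desaturase of polyunsaturated fat, was above in both myoepithelial libraries, at 127 and 62.1 CPM against 17.4 and 45.7 CPM, without passing the test (adjusted p = 0.0872). Thrsp, Agpat2, Acly and Mlxipl were the 4 of the 10 falls still called without brown adipocyte replicate 2.

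The mitochondrial oxidation genes were lower in the myoepithelial cells as a group. Of 19 fatty acid oxidation genes 14 fell, of 20 citric acid cycle genes 17 fell and of 25 nuclear oxidative phosphorylation genes 24 fell, with none higher, where 9.48% of the genes detected in both myoepithelial libraries fell. The median log2 differences of the members detected there were -2.92, -3.34 and -3.36, against 0.37 for all such genes. Every tested member of the citric acid cycle and oxidative phosphorylation lists was counted in both myoepithelial libraries. The part of the lower detection in these libraries in the falls was not tested. The lists' summed levels in the marked myoepithelial cells were 1565 and 1919.8 CPM and 1976 and 2291 CPM, against 2119 and 2338 CPM and 3375 and 3966 CPM in the unmarked ones. Both sums were thus lower in the marked libraries, without overlap.

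Cox5a, a nuclear subunit of cytochrome oxidase (ENSMUSG00000000088, chr9:57521274-57532426), stood at 22.1 and 11.2 CPM in the myoepithelial cells and 677 and 966 CPM in the brown adipocytes, 49.3-fold lower (log2 -5.62 ± 0.54 SE, adjusted p = 0.000637). Atp5k, whose promoter motif is printed above, stood at 6.21 and 2.96 CPM against 146 and 164 CPM (33.8-fold lower, adjusted p = 0.00219). Idh3a, a subunit of isocitrate dehydrogenase, stood at 42.6 and 52.6 CPM against 662 and 2000.4 CPM (27.97-fold lower, adjusted p = 0.00154), and Sdhb, a subunit of succinate dehydrogenase, at 46.9 and 52.1 CPM against 508 and 1164 CPM (16.9-fold lower, adjusted p = 0.00109). Among the oxidation enzymes, Acadl, a long-chain dehydrogenase, stood at 32.5 and 90.96 CPM against 649 and 1861 CPM (20.3-fold lower, adjusted p = 0.00257), and Decr1, a reductase for unsaturated fat, at 14.5 and 9.88 CPM against 191 and 354 CPM (22.4-fold lower, adjusted p = 0.000677). In all 6 genes the pairs of libraries did not overlap, and each call held without any 1 library.

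The exceptions within these lists were few. Cycs, cytochrome c, was the 1 oxidative phosphorylation gene not called, at 133 and 139 CPM against 183 and 195 CPM, and it shares sequence with other genes. Suclg2, the GTP-linked subunit of succinyl-CoA ligase, was at 33.9 and 23.6 CPM against 27.2 and 58.00 CPM with overlap, and it too shares sequence. Hadha, a subunit of the trifunctional protein, fell by only 2.08-fold, from 195 and 205 CPM to 98.7 and 93.3 CPM (adjusted p = 0.0498), and lost its call without any 1 of the 4 libraries (adjusted p from 0.0935 to 0.142) and with size factors computed by another method. Without brown adipocyte replicate 2, 8 of the 14 fatty acid oxidation genes, 11 of the 17 citric acid cycle genes and 20 of the 24 oxidative phosphorylation genes were called.

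Glucose genes moved in both directions. Of 17, 10 fell, 3 rose and 4 did not pass the test, where 22.5% of all genes fell and 5.34% rose. Slc2a1, the basal glucose transporter, rose 2.76-fold, from 32.9 and 34.02 CPM to 68.6 and 116 CPM (adjusted p = 0.0409), while Slc2a4 fell (above). Hk2, an inducible hexokinase, had 10 and 0 counts in the myoepithelial cells and stood at 75.9 and 183 CPM in brown adipocytes (adjusted p = 0.0022), whereas Hk1, the constitutive hexokinase, was at 122 and 206 CPM against 70.9 and 123 CPM without passing the test. Aldoa, aldolase, fell 20.5-fold (adjusted p = 0.00163). Gapdh rose from 11.6 and 10.5 CPM to 419 and 719.9 CPM (adjusted p = 0.000637), but it and Aldoa have copies elsewhere in the genome that share more than 20% of their sequence, so their counts are uncertain. Slc2a1 lost its call without myoepithelial replicate 2 or either brown adipocyte library (adjusted p from 0.102 to 0.154), and without brown adipocyte replicate 2, 6 of the 10 falls were called. Of the 3 rises, 1 was called without brown adipocyte replicate 1.

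**Figure D3:**
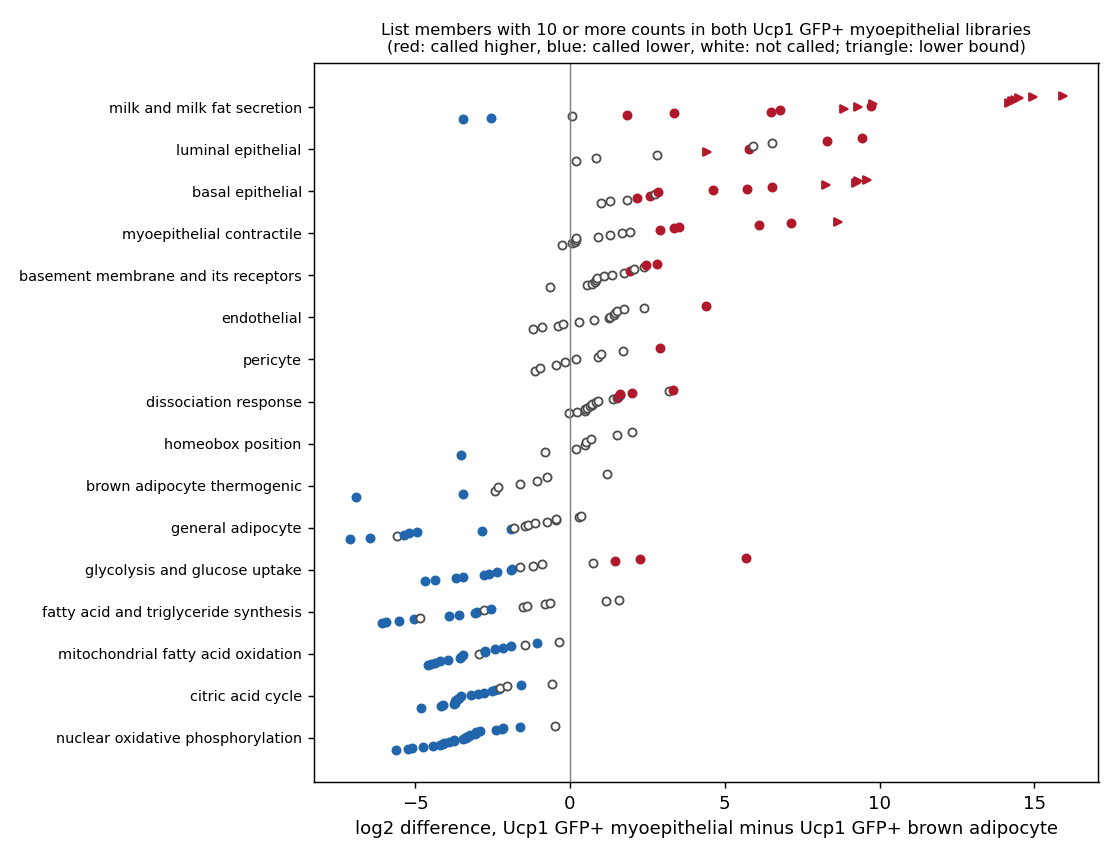
Log2 difference between the tissues of each list member with at least 10 counts in both Ucp1 GFP-positive myoepithelial libraries, 1 row per list. Most milk genes and all basal genes lie to the right, with triangles for genes at 0 in brown adipocytes. Citric acid cycle and oxidative phosphorylation genes all lie to the left of 0. Of the endothelial genes, 10 lie to the right of 0 and 4 to the left.

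The 15 largest rises by rule were milk or epithelial genes for the most part. All had no count in either brown adipocyte library, which follows from the ranking by fitted log2 difference. That value is not a measured size where a group is at 0, and 48 genes called higher were at 0 there. Among genes with at least 10 counts in all 4 libraries the highest log2 difference was 6.12. The falls below exclude genes at 0 in the myoepithelial cells, so the rankings are not alike. After the caseins and Wap came Lao1, an amino acid oxidase secreted in milk, at 277 and 382 CPM (at least 2338-fold), Btn1a1, butyrophilin of the milk fat globule, at 155 and 91.8 CPM (at least 876-fold), and Slc28a3, a nucleoside transporter, at 37.9 and 158 CPM. Muc15, a membrane mucin, stood at 71.8 and 76.6 CPM, Slc34a2, a phosphate transporter, at 84.1 and 46.4 CPM, and Wfdc3 at 86.7 and 26.8 CPM. The adjusted p-values of the 15 ran from 0.000637 to 0.00192.

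The 15 largest falls by rule, all detected with 10 counts or more in each myoepithelial library, included the mitochondrial genes Cox8b, Cox20, Ndufb6 and Chchd10 and the lipid genes Gpd1, Cidec, Srebf1 and Agpat2. Smim27 stood at 0.735 and 0.801 CPM against 117 and 149 CPM (172-fold lower, adjusted p = 0.00149). Its gene model overlaps that of Ndufb6, a subunit of respiratory complex I, which stood at 6.36 and 2.69 CPM against 280.0 and 349 CPM (69.5-fold lower, adjusted p = 0.000637), and without the strand setting of the counting the values of the 2 genes cannot be fully separated. Gnas, the stimulatory G protein subunit that couples adrenergic receptors to cyclic AMP, stood at 18.9 and 7.43 CPM against 1364 and 1587 CPM (112-fold lower, log2 -6.81 ± 1.14 SE, adjusted p = 0.00304). Hp was 92.6-fold lower, and Cox20, an assembly factor of cytochrome oxidase, stood at 1.36 and 0.753 CPM against 87.5 and 83.2 CPM (80.6-fold lower, adjusted p = 0.00073).

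The rest of these falls ranged from 59.2-fold to 79.5-fold, beside Gpd1, Cox8b and Cidec above. Srebf1, the main transcription factor of lipid synthesis, was at 8.82 and 0.243 CPM against 99.3 and 506 CPM (adjusted p = 0.025) and lost its call without brown adipocyte replicate 2 (adjusted p = 0.117). Chchd10, a protein of the mitochondrial intermembrane space, was at 36.9 and 16.2 CPM against 949 and 2197 CPM (adjusted p = 0.00622). Dvl2, a Wnt signal transducer, was at 2.13 and 30.5 CPM against 446 and 1682 CPM (adjusted p = 0.013), with a wide gap between the myoepithelial replicates, and lost its call without brown adipocyte replicate 2 (adjusted p = 0.0604). Mien1, Tmem120b and Bmyc were the others.

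The adrenergic pathway that activates brown fat was examined along its length. Of 18 receptor and signalling genes, 5 fell, none rose and 13 did not pass the test, a share of falls near the 22.5% of all genes. Only 1 of the 5 falls had at least 10 counts in both myoepithelial libraries. Adrb3 was at 13.7 and 19.7 CPM in the myoepithelial cells against 32.4 and 145 CPM in brown adipocytes (log2 -2.41, interval -5.60 to 0.78). Adcy3, an adenylyl cyclase, had 1 and 3 counts in the myoepithelial cells and stood at 28.9 and 127 CPM in brown adipocytes (adjusted p = 0.00171). Ptger3, a prostaglandin E receptor, had no count against 33.9 and 116 CPM (at least 1708-fold lower, adjusted p = 0.00113), and Irs1, the insulin receptor substrate, none against 4.62 and 11.9 CPM (at least 188-fold lower). Insr, the insulin receptor, overlapped, at 70.1 and 12.7 CPM against 22.9 and 45.5 CPM. Without myoepithelial replicate 1, 8 of the list fell and 2 rose.

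The homeobox position genes keep a record of where on the body axis a cell arose. Of 24, 8 fell, none rose and 16 did not pass the test, where 22.5% of all genes fell. Of the 8 falls, 7 had no count in either myoepithelial library. Hoxb7 stood at 26.1 and 9.87 CPM and Hoxc5 at 10.5 and 22.4 CPM in brown adipocytes against none. Hoxa5 was at 48.9 and 78.4 CPM in the myoepithelial cells and 50.2 and 38.95 CPM in the brown adipocytes (log2 0.51, interval -0.90 to 1.93), Tbx3, a T-box gene needed for mammary placodes, at 135 and 110.2 CPM against 115 and 98.6 CPM (interval -1.13 to 1.53), and Msx1 at 138 and 72.1 CPM against 91.1 and 57.2 CPM (interval -1.28 to 2.28). Hoxd9, a more posterior gene, was at 0.0368 and 0.922 CPM against 2.73 and 2.30 CPM, and at 56.7 and 76.8 CPM in GFP-negative myoepithelial cells. Of the falls, 4 were called without brown adipocyte replicate 1 and 3 without replicate 2. Of 14 somite and skeletal muscle genes tested, 4 fell and none rose, a share near the 22.5% of all genes, and 2 fell without brown adipocyte replicate 1. None of these 4 falls had at least 10 counts in both myoepithelial libraries. Meox1, a somite gene, had no count in the myoepithelial cells against 43.4 and 22.9 CPM (at least 755-fold lower, adjusted p = 0.00618 in the edgeR test). Meox2 was at 210.1 and 144 CPM against 121 and 85.5 CPM with no overlap and no call.

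Of 712 genes at 100 CPM or more in both tissues, 53 (7.44%) had a 95% interval of the log2 difference that lay within 1 of 0, that is, under a 2-fold difference either way. The 10 nearest by rule were Prkar1a, Sh3glb1, Sar1a, Dnajc3, Sf3b2, Arpc3, Cd47, Ctnna1, Cct5 and Spop. Prkar1a, a regulatory subunit of protein kinase A, stood at 433 and 363 CPM against 419.7 and 416 CPM (interval -0.73 to 0.59), and Ctnna1, alpha catenin of cell junctions, at 444 and 476 CPM against 368 and 493 CPM (interval -0.62 to 0.82). They were chosen for being near, so this is a description. Most are general cell functions: protein folding (Cct5, Dnajc3), splicing (Sf3b2), vesicle transport (Sar1a), and actin branching (Arpc3).

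Markers of other cell types were counted in both gates. Fibroblast genes were uneven: Dcn, decorin, stood at 80.1 and 58.2 CPM in the myoepithelial cells and 12.1 and 6.80 CPM in the brown adipocytes (7.33-fold, adjusted p = 0.0241), and Col3a1 at 519 and 97.3 CPM against 20.9 and 22.03 CPM (14.4-fold, adjusted p = 0.00598), while Dpt, dermatopontin, was at 0 and 0.0243 CPM against 3.15 and 4.68 CPM (adjusted p = 0.000843). In all, 2 of 16 rose and 4 fell, and the share of falls is near the 22.5% of all genes. Only 1 of the 4 falls had at least 10 counts in both myoepithelial libraries. Dcn lost its call without either brown adipocyte library (adjusted p from 0.0672 to 0.143), and Dcn and Col3a1 were not called with limma-voom. In the list, 1 gene fell without brown adipocyte replicate 1, 4 rose and 8 fell without myoepithelial replicate 1, and 6 rose without myoepithelial replicate 2. Basement membrane genes rose in 3 of 20 and fell in 1, where 5.34% of all genes rose. Lamc1, a laminin chain, was 3.88-fold higher (adjusted p = 0.0189) and Col4a1, a type IV collagen chain, 5.54-fold higher (adjusted p = 0.0324), but 1 of the 3 rises was called without brown adipocyte replicate 1 and 0 without replicate 2, against 6 without myoepithelial replicate 2. Pericyte genes, of contractile cells on capillaries, rose in 1 of 10 (Notch3, 7.53-fold, adjusted p = 0.00491), and Rgs5 was at 505 and 466 CPM against 328 and 151 CPM. The pericyte list summed to 979 and 910.5 CPM against 780.1 and 481 CPM, and its part in the contractile genes was not tested.

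Blood and nerve markers differed as well. Of 16 leukocyte genes, 4 rose and 3 fell, where 5.34% of all genes rose and 22.5% fell. All 4 rises but none of the 3 falls had at least 10 counts in both myoepithelial libraries. The antigen presentation gene Cd74 stood at 621 and 480.4 CPM against 43.1 and 10.7 CPM (20.5-fold, adjusted p = 0.00225), while Ptprc, which encodes the leukocyte antigen CD45, had no count in the myoepithelial cells and stood at 9.24 and 2.13 CPM in the brown adipocytes. Of the 4 rises, 1 was called without brown adipocyte replicate 2. Erythroid genes fell in 2 of 5 and rose in none, where 22.5% of all genes fell. Their summed level was 98.4 and 99.3 CPM against 1427 and 461 CPM. Of the 5, 4 share more than 20% of their sequence with other genes, so their counts are uncertain. Schwann cell genes fell in 5 of 10, where 22.5% of all genes fell, and in 3 without myoepithelial replicate 2 or brown adipocyte replicate 2. None of the 5 Schwann cell falls had at least 10 counts in both myoepithelial libraries, and 4 had no count in either. The summed levels of the list overlapped, at 158 and 180 CPM in the myoepithelial cells against 136 and 202 CPM. Of the falls, S100b was absent against 30.98 and 41.8 CPM (at least 829-fold lower, adjusted p = 0.000648 in the edgeR test). Genes induced by tissue dissociation rose in 4 of 18 and fell in none, where 10.3% of the genes detected in both myoepithelial libraries rose. Fosb stood at 728 and 502 CPM against 105 and 16.3 CPM (10.2-fold, adjusted p = 0.0208), and Nr4a1 at 1160.0 and 1406 CPM against 499 and 139 CPM (4.02-fold, adjusted p = 0.0259). Without brown adipocyte replicate 2, 0 of these 4 rises were called (adjusted p from 0.0612 to 0.0741 for the 2 named), and 2 without myoepithelial replicate 2. The part of the dissociation response in the other differences was not tested.

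The same tissue comparison in the Myf5 line, from 4 separate libraries, allowed a test of whether the difference itself depended on the line. It did for 134 genes (0.79%) in which the myoepithelial level relative to brown adipocytes was higher in the Ucp1 line, and for 2101 genes (12.4%) in which it was lower. Among the 6613 genes detected in both Ucp1 myoepithelial libraries the counts were 123 (1.86%) and 369 (5.58%). Of the 369, 343 had a higher mean level in Ucp1 than in Myf5 brown adipocytes and 306 a lower mean level in Ucp1 than in Myf5 myoepithelial cells. Of the 123, 116 had a lower mean level in Ucp1 brown adipocytes, and all 123 a higher one in Ucp1 myoepithelial cells. The higher count was 485 and 540 without myoepithelial replicates 1 and 2 of the Ucp1 line and 49 without its brown adipocyte replicate 1, and the lower count was 4015 and 3827 without the myoepithelial replicates. Whether the lines were processed together is not stated in the labels, so line and batch cannot be told apart.

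Of 23 general adipocyte genes, 8 had a higher line difference, none a lower one and 15 did not pass the test, where 0.79% of all genes were higher. The line difference was higher also in 3 of 20 fatty acid and triglyceride synthesis and 3 of 19 fatty acid oxidation genes. In the genes named here, of which Fasn and Hadha are not general adipocyte list members, the tissues were less far apart in the Ucp1 line. Adipoq stood at 12.5 and 17.02 CPM in Ucp1 and had no count in Myf5 myoepithelial cells, and was at 265 and 821 CPM in Ucp1 and 1573 and 1026 CPM in Myf5 brown adipocytes (adjusted p of the line difference = 0.00546). Lipe, hormone-sensitive lipase, stood at 124 and 183 CPM in Ucp1 and 18.6 and 20.2 CPM in Myf5 myoepithelial cells, and at 160.4 and 349 CPM and 1321 and 1225 CPM in the brown adipocytes, a log2 line difference of 5.31 ± 0.65 SE (adjusted p = 0.00199). Fasn, fatty acid synthase, stood at 185 and 300.4 CPM and 33.5 and 54.6 CPM in the myoepithelial cells, and at 1477 and 5786 CPM and 20054 and 16260.0 CPM in the brown adipocytes, a log2 line difference of 4.78 ± 1.13 SE (adjusted p = 0.022). Car3 differed by 6.90 ± 1.21 SE (adjusted p = 0.00605) and Hadha by 4.23 ± 0.51 SE (adjusted p = 0.00196). Fasn lost this call without brown adipocyte replicate 1 of the Ucp1 line (adjusted p = 0.0594). For Lipe, Fasn, Car3 and Hadha the Ucp1 myoepithelial libraries lay above the Myf5 ones and the Ucp1 brown adipocyte libraries below the Myf5 ones.

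Of 19 contractile genes, 11 had a lower line difference and none a higher one, where 12.4% of all genes were lower. The line difference was lower also in 7 of 10 pericyte and 7 of 16 fibroblast genes. Acta2 stood at 145 and 1384 CPM in Ucp1 and 1578 and 1547 CPM in Myf5 myoepithelial cells, but at 83.4 and 48.9 CPM and 2.69 and 2.20 CPM in the brown adipocytes (log2 line difference -5.79 ± 1.22 SE, adjusted p = 0.0132). Tagln followed the same order, with -4.98 ± 0.82 SE (adjusted p = 0.0048). Dcn stood at 80.1 and 58.2 CPM in Ucp1 and 10862 and 3572 CPM in Myf5 myoepithelial cells, with a log2 line difference of -7.04 ± 1.13 SE (adjusted p = 0.00434). Of the genes with the largest called line difference, Tmem252, Tnfsf9, Selp and Ecm2 had no count in Myf5 brown adipocytes and were counted in the other 3 groups: Ecm2, an extracellular matrix protein, at 46.1 and 39.8 CPM and 15.4 and 10.9 CPM in the Ucp1 line and 163 and 106 CPM in Myf5 myoepithelial cells, and Selp, an adhesion receptor of activated endothelium, at 7.28 and 106 CPM, 33.8 and 7.40 CPM and 130.3 and 109.6 CPM. The endothelial sum of the Ucp1 brown adipocytes was 7279.8 and 3859 CPM against 141 and 743 CPM in the Myf5 line, and its part in these line differences was not tested.

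**Figure D4:**
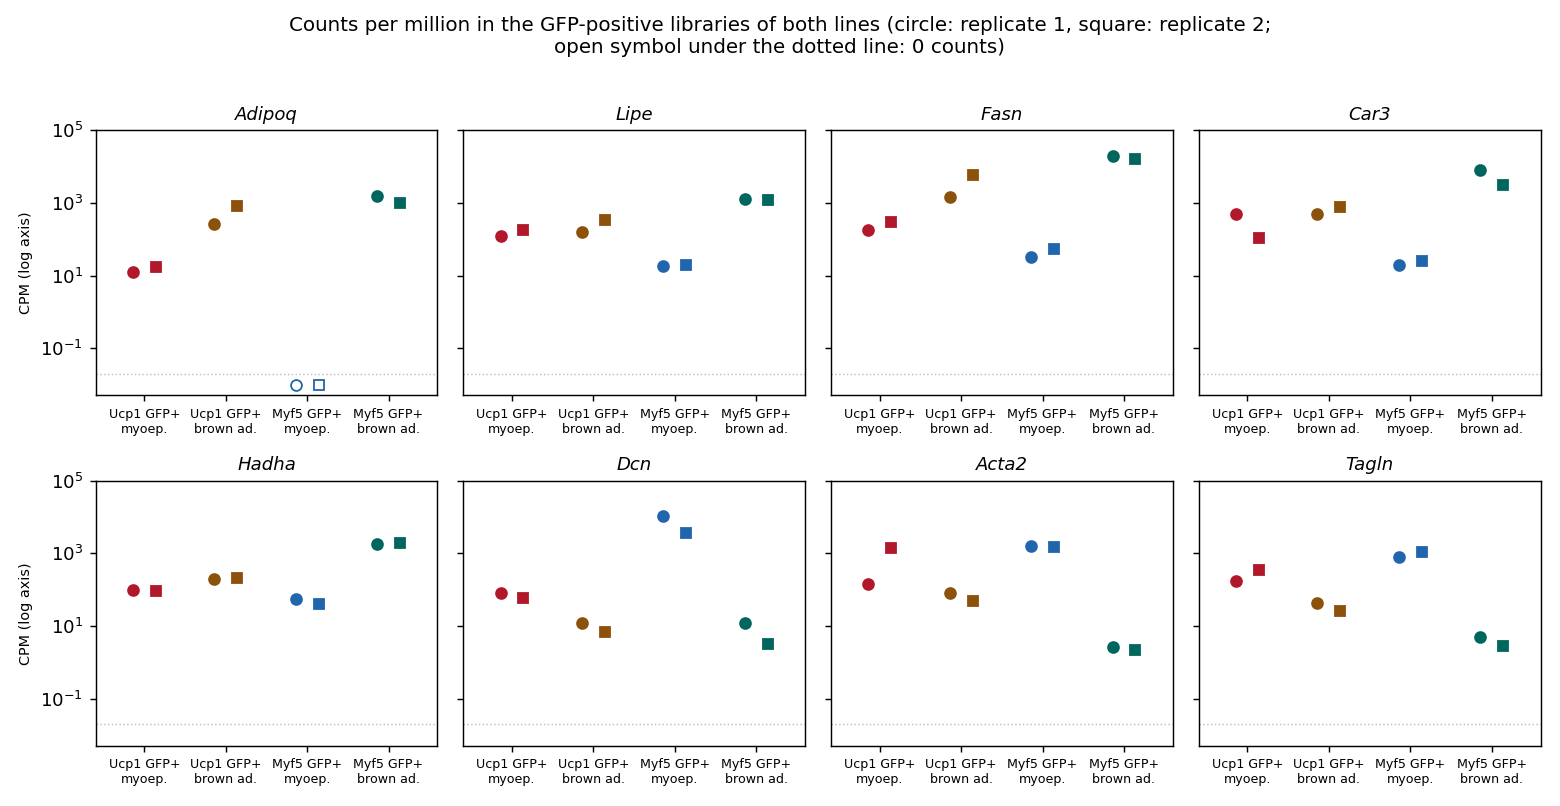
CPM (log axis) of 8 genes in the GFP-positive libraries of both lines, 1 point per library. Adipoq, Lipe, Fasn, Car3 and Hadha are further apart between the tissues in the Myf5 line than in the Ucp1 line, Acta2 and Tagln are lower in Myf5 than in Ucp1 brown adipocytes, and Dcn is highest in Myf5 myoepithelial cells.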

How the data were processed

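The deposited tables hold the authors' raw read counts per Ensembl gene, 1 table per library. TopHat, HTSeq and DESeq2, with the build mm10, stand in the submitters' processing notes without versions. The strand setting, the annotation release and the treatment of reads with several alignments were not given in the sources used here. Per the labels' protocols, cDNA was amplified from total RNA with a SMART-Seq Ultra Low Input kit before Illumina HiSeq sequencing. Groups were taken from the sample labels. GENCODE M21 gave symbols to 37607 of 38924 genes, and promoters are from RefSeq.

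All 12 libraries were fitted together, with 1 mean per group, in edgeR 4.0.16 (R 4.3.3; quasi-likelihood test, two-sided, TMM factors, filterByExpr with a minimum count of 10), and p-values were adjusted by Benjamini-Hochberg over all 16953 genes tested, with calls at 0.05. DESeq2 1.42.0, limma 3.58.1 (voom) and other settings were alternatives, and the fits were tested on simulated data. Intervals are nominally at 95%, the log2 difference with 1.96 SE on each side. This normal quantile makes them narrower than the quasi-likelihood test would. Where a group had no count, the bound on the fold took 3 counts over the pooled total of its 2 libraries. Such a bound covers counting error only. The intervals use the SE of the edgeR fit and so include the spread between libraries. Totals ran from 11027738 to 32956480 counts in the 4 libraries. A gene was left out of the 6613 detected genes when it was mitochondrial or a small RNA, or when more than 20% of its 31-base sequences occurred in other genes.

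The comparison, the 22 gene lists (400 of 401 symbols in the files) and the tests were chosen with earlier results of these data known. Named genes are the check and sorting genes, the 15 largest called rises and falls without overlap (at least 10 counts in both myoepithelial libraries and 10 CPM in the higher group), the 10 nearest levels at 100 CPM or more, the 5 largest line differences, up to 4 called members of a list by adjusted p, and members of the contractile, basal, luminal, milk, thermogenic, adipocyte and homeobox lists. Other genes named, such as Hk1, Cycs and Suclg2, were chosen after their values were seen.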

Additional observations from a re-analysis of the deposited data

Results flagged for a closer look

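The test of the difference between the lines picked out 134 genes in which the myoepithelial level relative to brown adipocytes was higher in the Ucp1 line than in the Myf5 line, and 2101 in which it was lower. The higher side held 8 of 23 general adipocyte genes, where 0.79% of all genes were higher. It held 0 of 20 citric acid cycle and 0 of 25 nuclear oxidative phosphorylation genes, which is near that share. Genes named from the higher side had log2 line differences of 5.31 for Lipe, 4.78 for Fasn, 6.90 for Car3 and 4.23 for Hadha. The lower side held 11 of 19 contractile genes, where 12.4% of all genes were lower. Differences there were -5.79 for Acta2, -4.98 for Tagln and -7.04 for the matrix gene Dcn. Other lists also held lower genes, 7 of 10 pericyte, 5 of 10 Schwann cell and 7 of 16 fibroblast genes among them. For 5 other genes 1 group had no count, so that no size is given: the adjusted p was 0.00546 for Adipoq (higher), and 0.0018 for Tmem252, 0.00196 for Tnfsf9, 0.0129 for Selp and 0.0018 for Ecm2 (lower; edgeR quasi-likelihood test).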

How the results depend on the processing

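Of the counts of calls, the higher ones depended most on the settings. DESeq2 called 1658 genes higher in place of 905 over all genes, 1254 in place of 682 among the detected genes, and 663 higher and 3435 lower in the line difference in place of 134 and 2101. No filter on low counts left 87 higher in the line difference. The fit of the 4 libraries alone called 0 in either direction. Without each of the 4 libraries in turn, the higher count ran from 168 to 1622 and the lower from 2026 to 4824 over all genes, from 103 to 1344 and from 263 to 1168 among the detected genes, and from 49 to 540 and from 1432 to 4015 for the line difference. Among the genes called by edgeR, 96.5% were called in the same direction by DESeq2 and 94.5% by limma-voom. The share was 99.4% with DESeq2's size factors and 84.6% with no filter on low counts. It was 98.1% with mitochondrial and milk genes removed before normalization, where the milk list could not be fitted. The largest shift of the median of all genes by a change of scaling or filter was -0.0317 on the log2 scale, with DESeq2's size factors.

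The replicate numbers only name libraries: the deviations of same-numbered myoepithelial and brown adipocyte libraries correlated at 0.0226 across genes. With the replicate number as a block, 709 genes were called higher and 3093 lower, which kept 79.5% of the calls. Fewer degrees of freedom are part of that fit.

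Median log2 differences of the lists, over members detected in both myoepithelial libraries, moved by more than the replicate spread in these ranges without 1 library: from 3.24 to 5.04 for basal epithelial genes; from 4.85 to 5.76 for luminal epithelial genes; from 8.85 to 9.29 for milk genes; from -2.69 to -0.699 for thermogenic genes; from -2.54 to -1.57 for general adipocyte genes; from -3.77 to -1.74 for fatty acid and triglyceride synthesis genes; from -3.64 to -2.10 for mitochondrial fatty acid oxidation genes; from -3.83 to -2.27 for citric acid cycle genes; from 0.132 to 0.788 for homeobox position genes; from -1.29 to 3.34 for fibroblast genes; from -0.183 to 0.79 for pericyte genes; from 0.577 to 1.502 for dissociation response genes; from -1.16 to -0.0495 for adrenergic genes. In every fit, milk genes with no count in brown adipocytes (9 of 17) were kept at their bound from the main fit. The milk range therefore does not measure how far those genes depend on a library. The fibroblast median turned to -1.29 without myoepithelial replicate 1 and the pericyte median to -0.183 without replicate 2. With limma-voom the luminal median was 6.26 and the fibroblast median 0.46. The cause was not tested.

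No called gene named in the text changed direction under any setting. Genes without a call changed sign, as those nearest to 0 do: without 1 library the fitted log2 values ran from -0.207 to 0.048 for Prkar1a, from -0.264 to 0.255 for Sh3glb1, from -0.102 to 0.26 for Sar1a, from -0.199 to 0.202 for Dnajc3, from -0.0378 to 0.222 for Sf3b2, from -0.391 to 0.523 for Arpc3, from -0.215 to 0.355 for Cd47, from -0.104 to 0.323 for Ctnna1, from -0.262 to 0.239 for Cct5. With DESeq2's size factors, DESeq2, the removed mitochondrial and milk genes and the 4 libraries alone, Sh3glb1 was at -0.00965, -0.0096, -0.0062 and -0.00775, and with limma-voom and the block Arpc3 was at 0.088 and 0.0212. The others ran from -3.61 to 1.13 for Cd24a, from -0.57 to 0.592 for Tnfsf9, from -1.50 to 2.93 for Selp, from -2.34 to 1.05 for Myl9, from -0.71 to 0.424 for Myl6, from -0.885 to 0.818 for Tpm1, from -0.605 to 0.883 for Cald1, from -5.24 to 4.84 for Oxtr, from -5.84 to 5.36 for Trp63, from -0.258 to 0.358 for Mfge8, from -1.02 to 0.0817 for Suclg2, from -0.0425 to 0.894 for Msx1, from -0.687 to 0.493 for Gpihbp1, from -1.43 to 1.03 for Insr. Of these, Oxtr was called in opposite directions, lower without myoepithelial replicate 2 (adjusted p = 0.0174) and higher without replicate 1 (adjusted p = 0.00461). Cd24a was called lower without myoepithelial replicate 2 (adjusted p = 0.0439), Trp63 higher without replicate 2 (adjusted p = 0.0224) and Selp higher without replicate 1 (adjusted p = 0.0419). With limma-voom Cd24a was at -0.924, Tnfsf9 at 0.0671, Myl9 at -0.389 and Insr at -0.35, and with the block Tnfsf9 was at 0.0288 and Myl9 at -0.534.

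Of the 3812 genes called lower, 2529 had no count in either myoepithelial library, although these were the deeper libraries; the cause was not tested. With 2 libraries a group and a replicate r of 0.731 in the myoepithelial cells, single genes that miss the threshold are not shown to be equal.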
